A study of Mus musculus with 6 samples.

Results

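The 10 genes described here encode the NF-kappaB transcription factor subunits and the inhibitors and cofactors that NF-kappaB itself switches on. They were chosen by name from the deposited expression table, and all 10 were found among its 48709 genes. The subunits are Nfkb1, Nfkb2, Rel, Rela and Relb. The inhibitors and cofactors are Nfkbia, Nfkbid, Nfkbiz and Bcl3 of the IkappaB family, and Tnfaip3, which encodes the ubiquitin-editing enzyme A20.

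The cells were invariant natural killer T (iNKT) cells sorted from mouse spleen, innate-like T cells whose semi-invariant receptor binds lipids shown by CD1d. The labels describe 6 samples in the resting state, 3 of genotype Gpx4 cKO, a conditional knockout of the lipid peroxide-reducing enzyme gene Gpx4, and 3 of genotype WT. The strain, the age of the mice and the promoter driving the deletion are not stated in the labels, which also do not say whether the samples came from separate animals. The table names its libraries by numbers from 18 to 23 that occur in no label. No library was therefore assigned to a genotype, no comparison of Gpx4 cKO with WT was made, and every value below belongs to a numbered library.

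NF-kappaB proteins bind DNA as dimers that share a Rel homology region. In resting cells IkappaB proteins, of which IkappaB alpha from Nfkbia is the classical one, hold most dimers in the cytoplasm. Signals from the T cell receptor, costimulatory receptors and cytokine receptors lead the IKK kinase to mark IkappaB for destruction, and the freed dimers induce Nfkbia and Tnfaip3, whose products shut the pathway down again. NF-kappaB is also required for iNKT cells to develop and survive.

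Total exon reads ranged from 903524 in library 21 to 10122187 in library 19, so library 21 gave the widest intervals. The defining T cell and iNKT transcripts were abundant in every library: Cd3e ranged from 764 to 924 CPM (exon reads per 1000000, on effective library sizes) and Zbtb16, which encodes PLZF, from 245 to 357 CPM. Some other T cell and iNKT markers moved more. Tbx21 was at 160 and 131 CPM in libraries 18 and 19 and at 59.1 to 94.3 CPM elsewhere. Il2rb was at 1376 CPM in library 19 and at 724 to 928 CPM elsewhere, and Trav11 ranged from 49.5 to 81.6 CPM. Cd8a had 1 read in all 6 libraries together. Gpx4 was read in every library, at 3.20 CPM (library 19) to 31.3 CPM (library 20), and was not used to assign genotypes. Intervals are 95% intervals for counting error only.

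Of the 10 genes, 7 had a promoter window (250 bases before to 50 after a transcription start) in the RefSeq table for GRCm38.p6. Nfkb1, Relb and Nfkbiz had none. A tight form of the kappaB motif, GGG, then any 2 bases, then TTTCC, was searched on both strands. It occurred in windows of 4 of the 7 genes (Nfkbia, Tnfaip3, Nfkb2 and Rel), against 1.89% of 27025 genes with a window and 1.63% of 32851 windows. A looser form, GGG, then any 5 bases, then CC, which contains every match of the first, occurred in all 7, but also in 53.5% of all genes with a window. The tight form leaves out some close letters, such as GGGACTTCCC in an Nfkbid window. A match describes letters only and is not evidence of binding. These 4 windows are shown because they carry the tighter motif and because they include Nfkbia and Tnfaip3, the most abundant of the feedback genes. Each is written 5′ to 3′ on the gene's strand, with the match in capitals.
Nfkbia, chr12:55492598-55492897, minus strand: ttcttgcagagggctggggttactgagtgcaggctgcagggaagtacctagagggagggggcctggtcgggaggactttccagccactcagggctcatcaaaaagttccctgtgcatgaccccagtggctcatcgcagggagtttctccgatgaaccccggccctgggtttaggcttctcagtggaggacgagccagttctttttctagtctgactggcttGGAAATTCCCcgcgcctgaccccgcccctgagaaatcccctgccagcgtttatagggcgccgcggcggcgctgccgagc
Tnfaip3, chr10:19015361-19015660, minus strand: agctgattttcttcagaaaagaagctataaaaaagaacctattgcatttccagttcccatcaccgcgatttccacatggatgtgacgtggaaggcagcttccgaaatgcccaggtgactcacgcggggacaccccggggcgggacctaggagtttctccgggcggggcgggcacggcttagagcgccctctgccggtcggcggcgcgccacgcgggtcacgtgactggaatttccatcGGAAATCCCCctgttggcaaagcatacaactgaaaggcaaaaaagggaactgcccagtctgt
Nfkb2, chr19:46305445-46305744, plus strand: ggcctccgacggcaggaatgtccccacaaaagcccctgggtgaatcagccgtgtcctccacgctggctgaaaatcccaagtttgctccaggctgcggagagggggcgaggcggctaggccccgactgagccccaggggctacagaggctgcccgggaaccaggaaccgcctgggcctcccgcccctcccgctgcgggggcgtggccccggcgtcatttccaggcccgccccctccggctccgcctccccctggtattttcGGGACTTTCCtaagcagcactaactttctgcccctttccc
Rel, chr11:23770920-23771219, minus strand: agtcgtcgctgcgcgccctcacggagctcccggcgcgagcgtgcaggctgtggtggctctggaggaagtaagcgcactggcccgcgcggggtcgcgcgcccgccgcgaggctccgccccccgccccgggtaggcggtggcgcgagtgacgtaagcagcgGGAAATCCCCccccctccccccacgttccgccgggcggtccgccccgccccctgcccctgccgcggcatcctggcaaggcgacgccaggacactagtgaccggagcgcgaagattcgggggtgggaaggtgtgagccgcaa

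In Nfkbia the match lay on the opposite strand, reads GGGAATTTCC there, and began 29 bases before the start. Tnfaip3 and Rel held the same 10 letters on the opposite strand, GGGGATTTCC, beginning 12 and 91 bases before their starts. Nfkb2 has 3 windows, and each held a match; the one shown, GGGACTTTCC, began at base 11 of the transcript and is the same place as the match in an overlapping window.

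Levels can be compared between genes only per length of transcript, and the deposited RPKM (reads per kilobase of exon and per 1000000 reads) gives that scale. It assumes that reads fall along the whole transcript, which was not tested. Nfkbia and Tnfaip3 stood far above the rest, with median RPKM of 77.0 and 76.8 over the 6 libraries, above 97.5% of the 9042 genes that had at least 200 exon reads in total. A middle tier held Nfkbiz (median 14.1 RPKM), Nfkb1 (13.5 RPKM), Nfkb2 (13.1 RPKM) and Rela (11.7 RPKM). Their ranges over libraries overlapped, so no order holds within that tier. Rel (7.44 RPKM), Nfkbid (5.82 RPKM), Bcl3 (4.53 RPKM) and Relb (4.08 RPKM) were lower. Rel, whose highest value was 9.01 RPKM, did not reach the lowest of Rela, 9.38 RPKM, and from Rel down each gene overlapped its neighbour in this order. The lowest RPKM of Nfkbia, 65.9 in library 18, still exceeded the highest of every subunit, 15.3 for Rela in library 22.

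**Figure D1:**
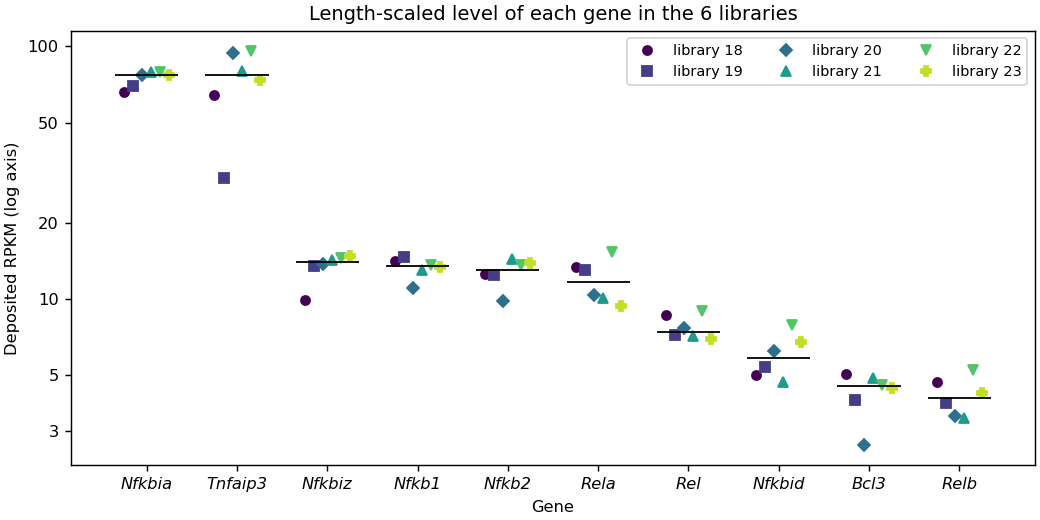
Deposited RPKM (log axis) of the 10 genes, ordered by median; each symbol is 1 library and each bar the median of the 6 libraries. Nfkbia (median 77.0 RPKM) and Tnfaip3 (76.8 RPKM) lie above all others, and the Tnfaip3 value of library 19, 30.0 RPKM, lies far below its other values.

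All 10 genes had at least 200 exon reads in total and were tested for differences between libraries larger than counting error, with a chi-square test on effective library sizes over the 9042 genes and Benjamini-Hochberg adjustment. Of the 10 genes 9 were called at an adjusted p of 0.05, against 71.6% of all genes tested. The test compares libraries, not genotypes, and a large count makes small differences detectable: the 10 genes had a median of 3432 reads in total, against 1290 for all tested genes. The ratio of the highest to the lowest library (fold range) had a median of 1.45 for the 10 genes and 1.57 for all tested genes. It exceeded 1.5 for 5 of the 10 genes, against 57% of all tested genes, and 2 for Tnfaip3 alone, against 27.1%. Intervals given below for a fold range take its highest and lowest libraries as fixed, although both were picked from the data. They therefore lean towards a wider range, and the chi-square test alone decided a call.

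**Figure D2:**
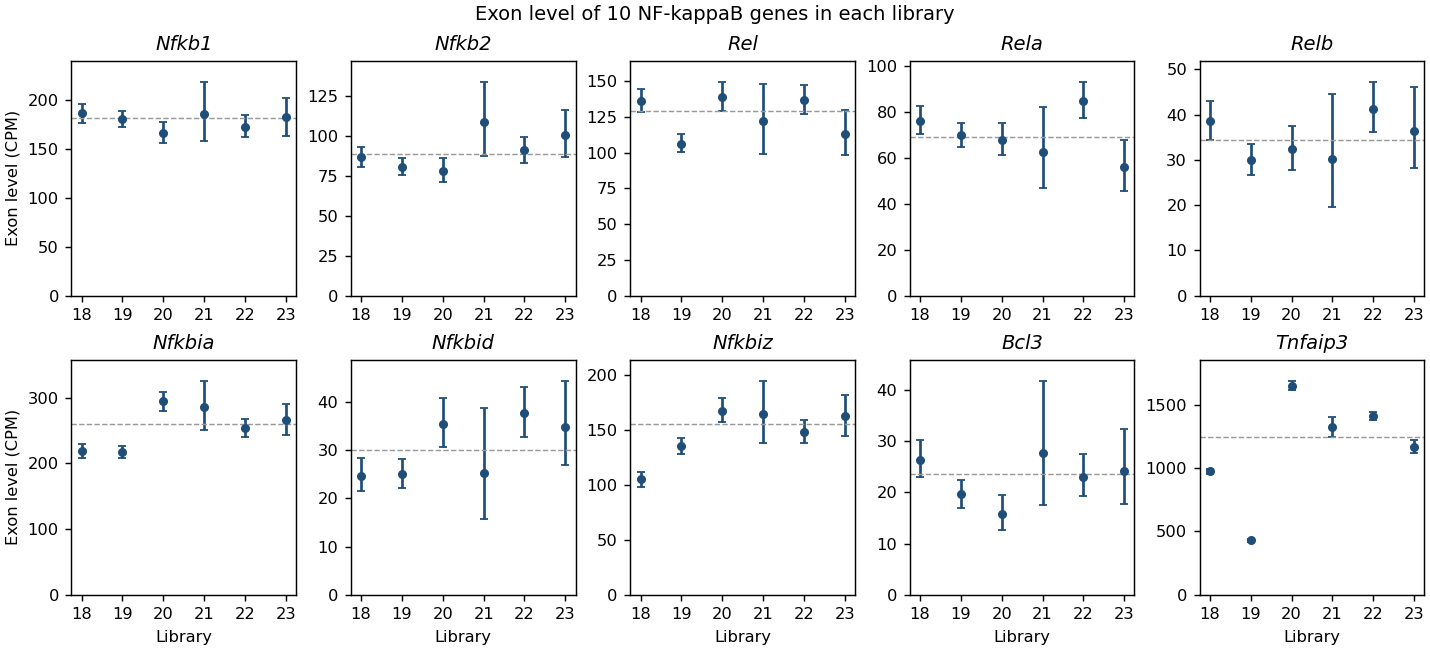
Exon level (CPM, linear axes from 0) of each gene in each of the 6 libraries, with 95% exact Poisson intervals; the dashed line is the median. Tnfaip3 ranges 3.84-fold with library 19 lowest at 430 CPM, and Nfkb1 stays between 167 and 186 CPM.

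Among the subunits, Nfkb1 encodes p105, the precursor of p50, which pairs with RelA in the classical dimer. The gene (ENSMUSG00000028163) lies at chr3:135584655-135691547 of GRCm38 on the minus strand, with 6217 bases of exon. Its level was 186, 180, 167, 186, 173 and 182 CPM across libraries 18 to 23. The 6 values lay within a 1.12-fold range (95% interval 1.03 to 1.21), and it was the only one of the 10 genes not called (adjusted p = 0.154, chi-square test with Benjamini-Hochberg adjustment). It was called when total exon reads replaced effective library sizes (adjusted p = 0.0109).

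Rela encodes p65, the activating partner in that dimer. It was measured at 76.3, 69.9, 68.0, 62.8, 84.7 and 55.9 CPM across libraries 18 to 23. Library 22 was highest and library 23 lowest, a 1.52-fold range (1.23 to 1.89; adjusted p = 0.00061, same test). Per length, Nfkb1 and Rela were read at similar levels: their RPKM ratio ran from 0.890 (0.795 to 0.997) in library 22 to 1.42 (1.14 to 1.79) in library 23.

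Rel encodes c-Rel, the subunit induced by antigen receptors in lymphocytes (ENSMUSG00000020275, chr11:23736847-23770970, minus strand, 7466 bases of exon). Its level was 136, 106, 139, 122, 137 and 113 CPM across libraries 18 to 23. Library 19 was lowest and library 20 highest (by RPKM, libraries 23 and 22), a 1.31-fold range (1.19 to 1.43; adjusted p = 8.59e-10). The call rested on library 19, since without it Rel was not called (adjusted p = 0.108). Rel had fewer reads per length than Rela in every library, with RPKM ratios from 0.554 in library 19 (0.504 to 0.608) to 0.743 in library 20 (0.656 to 0.843), although the interval of library 21 (0.501 to 1.01) reached 1.

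Nfkb2 encodes p100, the precursor of p52, and RelB is the partner of p52 in the alternative pathway driven by the kinase NIK. Nfkb2 was at 86.6, 80.9, 78.2, 109, 91.2 and 101 CPM across libraries 18 to 23. The range was 1.39-fold (1.09 to 1.75; adjusted p = 0.00436), with library 20 lowest and the shallow library 21 highest, and the call was lost when total exon reads replaced effective library sizes (adjusted p = 0.0623). Relb, the member with the lowest median RPKM, was at 38.6, 29.9, 32.4, 30.2, 41.4 and 36.4 CPM across libraries 18 to 23. Library 19 was lowest (by RPKM, library 21), and the 1.38-fold range was called with all libraries (adjusted p = 0.00398) and not without library 19 (adjusted p = 0.15). Relb transcripts stood at 0.300 to 0.455 of the RPKM of Rela, and Nfkb2 at 0.848 to 1.11 of the RPKM of Nfkb1.

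Nfkbia (ENSMUSG00000021025, chr12:55489411-55492647, minus strand, 1577 bases of exon) had the narrowest range of the IkappaB genes. It was at 219, 217, 294, 286, 254 and 266 CPM across libraries 18 to 23. Libraries 18 and 19 were lowest, and their intervals (209 to 229 and 208 to 226) did not reach those of the other 4 libraries. The range of 1.36-fold (1.27 to 1.45) was called at an adjusted p of 1.2e-23. By RPKM, which is scaled to more than exon reads, the range was 1.20-fold and library 18 was lowest. Relative to Rela within each library, which needs no scaling between libraries, Nfkbia was at 4.94 (4.51 to 5.41) times the RPKM in library 18 and 8.19 (6.63 to 10.2) times in library 23. Library 22, at 5.16 (4.64 to 5.74), and library 19, at 5.35 (4.92 to 5.82), overlapped library 18. This ratio thus did not set libraries 18 and 19 apart from the rest.

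Nfkbiz encodes IkappaB zeta and Nfkbid IkappaBNS, atypical nuclear family members that act with NF-kappaB on chromatin. Nfkbiz was at 105, 135, 168, 164, 148 and 162 CPM across libraries 18 to 23. Library 18 was lowest in its 1.60-fold range (1.46 to 1.75, adjusted p = 7.93e-23, same chi-square test). Without that library the range was 1.24-fold, and Nfkbiz was still called (adjusted p = 1.69e-05). Nfkbid was low in libraries 18, 19 and 21 (24.7, 25.0 and 25.3 CPM) and higher in libraries 20, 22 and 23 (35.5, 37.7 and 34.8 CPM). Its range was 1.52-fold (1.25 to 1.86; adjusted p = 5.64e-06), and library 21 held only 21 reads.

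Bcl3, the IkappaB-family cofactor of p50 and p52 homodimers, was the least abundant on the CPM scale. It was at 26.4, 19.6, 15.8, 27.8, 23.1 and 24.3 CPM across libraries 18 to 23. Library 20 was lowest, where Nfkbia and Nfkbiz were highest on the CPM scale. The 1.75-fold range was called (adjusted p = 0.00127, same chi-square test). Its interval was wide (1.06 to 2.81) because library 21, the highest, held 23 Bcl3 reads. By RPKM, library 18 was highest. Without library 20 the range was 1.417-fold, and the call was close to its threshold (adjusted p = 0.0498). An annotated antisense gene overlapping Bcl3 held 20 exon reads in all, against 708 for Bcl3, and the labels do not say whether counting used strand.

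Tnfaip3 (ENSMUSG00000019850, chr10:19000910-19015657, minus strand, 7226 bases of exon) differed more between libraries than any other of these genes. Its level was 974, 430, 1651, 1321, 1410 and 1170 CPM across libraries 18 to 23. No interval overlapped between library 19 (417 to 443 CPM), library 18 (953 to 995 CPM) and the other 4 libraries, whose lowest bound was 1122 CPM. The range was 3.84-fold (3.71 to 3.98), with a chi-square of 6817 on 5 degrees of freedom and an adjusted p too small to represent. Without library 19 it was 1.70-fold, and Tnfaip3 was still called. In a bulk sample, fewer cells with a transcript and less transcript per cell cannot be told apart.

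Tnfaip3 and Nfkbia, both feedback genes, did not keep a fixed ratio. The ratio of Tnfaip3 to Nfkbia RPKM was 0.972 (0.923 to 1.02), 0.432 (0.411 to 0.455), 1.23 (1.16 to 1.29), 1.01 (0.875 to 1.17), 1.21 (1.15 to 1.29) and 0.961 (0.872 to 1.06) across libraries 18 to 23. Library 19 lay apart from the other 5 in this ratio, which does not depend on library scaling. The ratio of Nfkbiz to Nfkbia RPKM was 0.151 (0.139 to 0.164) in library 18 and 0.179 to 0.196 in the others. The interval of library 18 lay below those of libraries 19, 20, 22 and 23 and overlapped that of library 21.

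The 5 early-response genes Fos, Jun, Nr4a1, Egr1 and Dusp1 were each lowest in library 19 and next lowest in library 18. The AP-1 genes Fos and Jun were at 103 and 119 CPM in library 19, at 405 and 296 CPM in library 18, and at 714 CPM or more in the other 4 libraries. Nr4a1, a nuclear receptor gene, was at 4.43 CPM in library 19, 24.7 in library 18 and 39.0 to 76.0 CPM in the other 4. Egr1, a zinc finger transcription factor gene, was at 41.5 CPM in library 19, 54.7 in library 18 and 77.0 to 101 CPM in the other 4. Dusp1, a phosphatase gene, was at 419 CPM in library 19, while its 773 CPM in library 18 was close to the 787 CPM of library 23 and the 799 CPM of library 21. Markers of other blood cells were measured beside these genes. The summed level of 5 erythroid markers was 3.98 CPM in library 18, 4.80 in library 19 and 62.8 to 281 CPM in the other 4, with Alas2 at 0 in 2 libraries and Hba-a1 and Hba-a2 at 0 in 1 library each. Of the B cell markers, the immunoglobulin gene Igkc was at 605 CPM in library 18, 1735 in library 19 and 3190 to 4505 CPM in the other 4, while Cd79a, Cd79b and Ms4a1 each stayed at or below 20.4 CPM. The 6 myeloid markers summed to 5.46 to 11.3 CPM, with S100a8 at 0 in every library. The part of other cells in the Tnfaip3 and Nfkbia values was not tested.

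**Figure D3:**
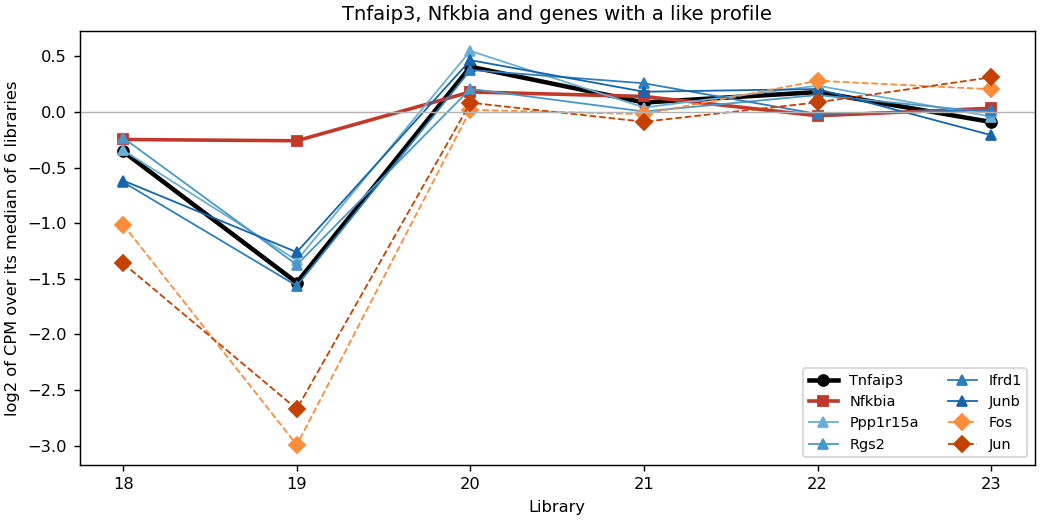
Level of Tnfaip3, Nfkbia, the 4 genes with the profiles nearest to Tnfaip3 (Ppp1r15a, Rgs2, Ifrd1 and Junb), Fos and Jun in each library, as log2 of CPM over the median of the 6 libraries; lines join the points of a gene and carry no order. Library 19 is lowest for Tnfaip3 (430 CPM), Fos (103 CPM) and Jun (119 CPM), and Nfkbia stays within a 1.36-fold range.

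Reads on introns come largely from RNA that is not yet spliced, and the deposited table gives their share for each gene. Over all libraries together, introns held 77.2% of the gene's reads for Nfkb1, 68.7% for Relb, 61.4% for Nfkbid, 60.6% for Nfkbiz, 53.0% for Rel, 40.2% for Tnfaip3, 36.5% for Nfkb2, 35.3% for Bcl3, 24.9% for Rela and 15.1% for Nfkbia. The median of the 10 genes was 46.6%, against 41% for the 8464 genes tested for intron share. Shares also depend on the length of introns, so nothing was read from these differences between genes. Tests compared shares between libraries within a gene only. The share varied beyond counting error for 8 of the 10 genes, against 70.6% of all genes tested (chi-square test with Benjamini-Hochberg adjustment). Relb (adjusted p = 0.0721) and Bcl3 (adjusted p = 0.421) were not called.

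Library 19 had the lowest intron share for 7 of the 10 genes, against 12.3% of all genes tested, and library 21 the highest for 6 of the 10, against 26.5%. Most of these ranks were within counting error. Only Rel and Nfkbia in library 19, and Rel and Nfkb1 in library 21, had intervals apart from those of every other library. Over all genes with an exon read, introns held 47.6% of gene reads in library 19 and 46.4% in library 21. The other 4 libraries lay at 45.5% to 50.6%. Whether an effect on the whole library set the ranks of the 10 genes was not tested. Rel was at 49.6%, 42.6% (40.4 to 44.8), 60.2%, 74.7% (70.2 to 78.9), 56.2% and 53.0% across libraries 18 to 23. Its range of 32.2 percentage points was 17.6 without library 21, which is below the 20.9 points of Nfkb2 and the 20.2 points of Rela without that library. Nfkbia was at 14.9%, 10.9%, 16.8%, 21.8%, 16.4% and 21.5% in libraries 18 to 23. Nfkb2 reached its highest share in library 20, 48.2% (44.7 to 51.7), and its lowest in library 19, 27.3% (24.8 to 30.0). Without library 20 the Nfkb2 range was 12.4 points.

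**Figure D4:**
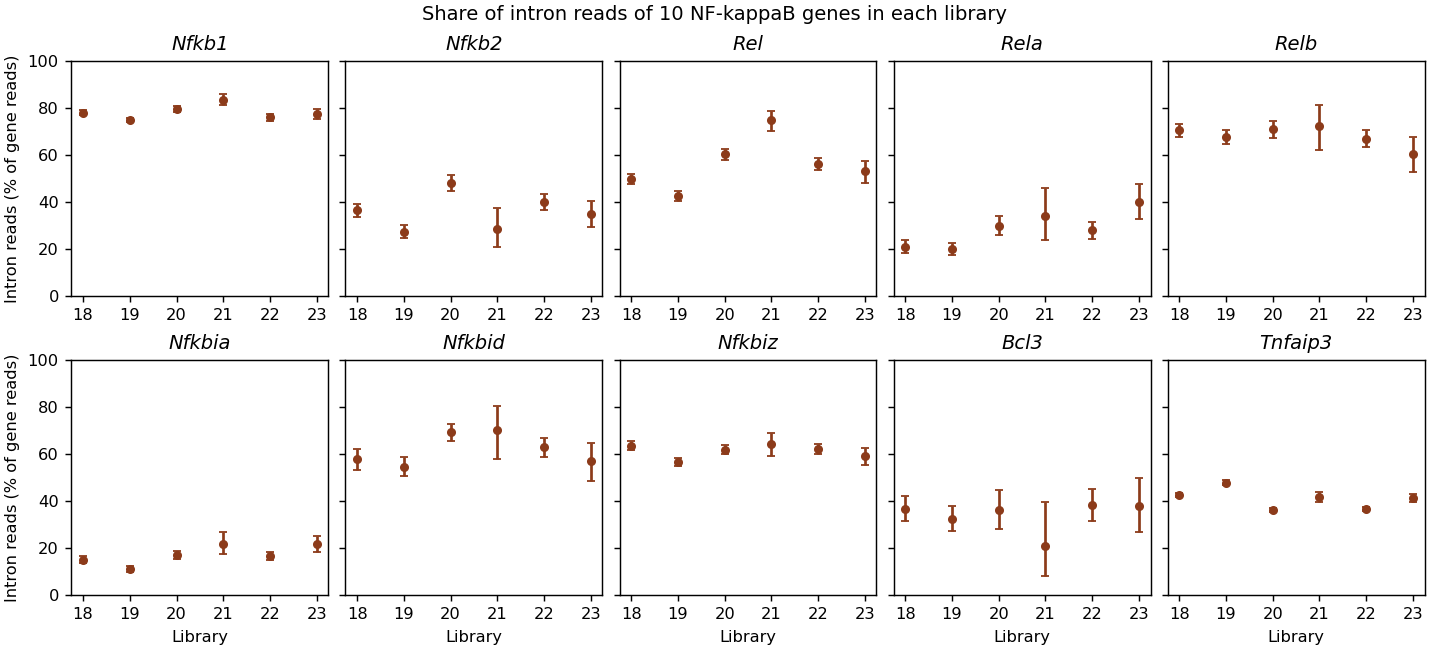
Intron reads as a share of all reads of a gene (percent, axis 0 to 100) in each library, with exact binomial 95% intervals. Rel ranges from 42.6% in library 19 to 74.7% in library 21, a range of 32.2 percentage points that is 17.6 without library 21, while Tnfaip3 is highest in library 19 at 47.7%.

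Tnfaip3 ran the other way. Its intron share was 42.5%, 47.7% (46.6 to 48.7), 36.1%, 41.6%, 36.5% and 41.2% across libraries 18 to 23, so the highest share fell in library 19, where the exon level was lowest. Its range of 11.6 percentage points was 6.46 without library 19. Of all genes tested, 14.6% had their highest share in library 19. Scaled to the total of intron reads in each library, Tnfaip3 introns held 453 reads per 1000000 in library 19, 781 in library 18 and 922 to 996 in the other 4. On this scale the intron reads of all 10 genes varied beyond counting error, against 80.4% of all genes tested. The Tnfaip3 intron level thus ranged 2.20-fold, against 3.84-fold for the exon level, with library 19 lowest in both. Without library 19 these ranges were 1.27-fold and 1.70-fold. For Nfkbia the intron level ranged further than the exon level, 2.74-fold from library 19 to library 21 (30.8 to 84.4 reads per 1000000), and for Rel it ranged 4.20-fold between the same libraries (91.1 and 382 reads per 1000000). The Rel intron range was 2.31-fold without library 21 and 2.63-fold without library 19, and that of Nfkbia was 2.03-fold without library 19. Nfkb1 introns ranged 1.62-fold, also from library 19 to library 21, and 1.17-fold without library 21.

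**Figure D5:**
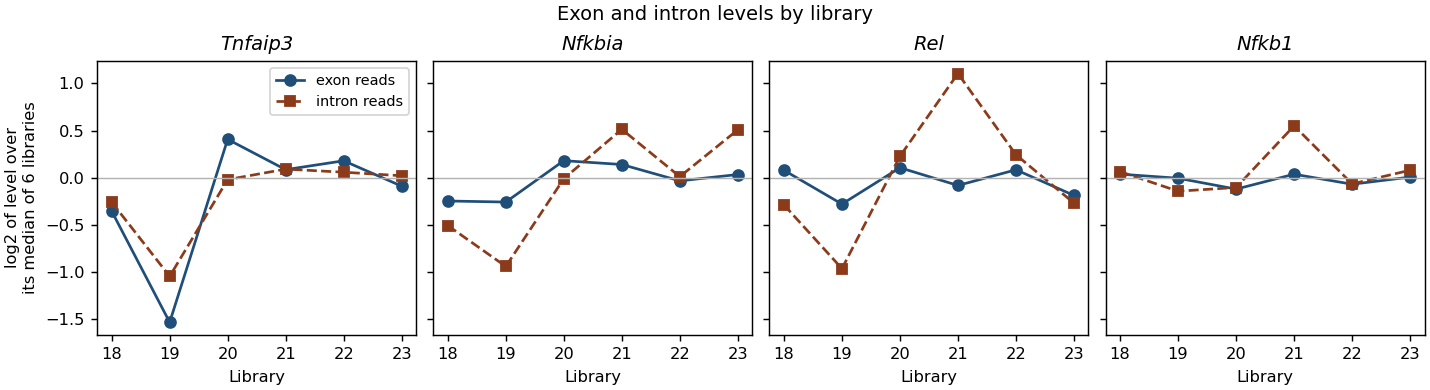
Exon level (circles, CPM) and intron level (squares, reads per 1000000 intron reads) of 4 genes in each library, as log2 of the ratio to the median of the 6 libraries; lines join the points of a gene and carry no order. Exon reads range further than intron reads for Tnfaip3 (3.84-fold and 2.20-fold), and the reverse holds for Nfkbia (1.36-fold and 2.74-fold) and Rel (1.31-fold and 4.20-fold). The intron range is 2.31-fold for Rel without library 21 and 1.27-fold for Tnfaip3 without library 19.

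The rest of the pathway was read from a list of 70 genes, of which 62 had enough reads for the test and 50 varied beyond counting error, against 71.6% of all genes tested. Their median fold range was 1.51, against 1.57 for all genes tested. In the receptor-proximal and IKK arm, 24 of 28 genes varied, against 71.6% of all genes tested, and the median fold range was 1.40. Among the most abundant were Tab2, an adaptor of the TAK1 kinase, from 281 to 354 CPM, Prkcq, the T cell protein kinase C theta gene, from 243 to 313 CPM, and Ikbkb, the catalytic IKK beta gene, from 232 to 274 CPM. Of these, Ikbkb was not called (adjusted p = 0.0699). The widest ranges in this arm belonged to Tab3, at 287 CPM in library 21 and 39.5 to 51.0 CPM elsewhere, to Tab1 (3.69 to 14.5 CPM) and to Tradd, an adaptor of TNF receptor signalling (9.45 to 30.2 CPM). Tab1 and Tradd had only 240 and 477 exon reads in all libraries together, and both were highest in the shallow library 21.

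Among 18 other brakes on the pathway, 17 were tested and 10 varied, against 71.6% of all genes tested. Of the 4 most abundant brakes, 2 were not called. Cyld, a deubiquitinase gene, ranged from 455 to 484 CPM (adjusted p = 0.172), and Tax1bp1, an adaptor that works with A20, from 342 to 369 CPM (adjusted p = 0.298). Tnip1, which encodes another A20-binding protein, ranged from 249 to 344 CPM, lowest in library 18 and highest in library 23 (adjusted p = 1.32e-12), and the ubiquitin ligase gene Itch from 126 to 173 CPM (adjusted p = 0.000218). The widest ranges were those of Nfkbib, the IkappaB beta gene (8.45 to 21.1 CPM), Nkiras1 (4.75 to 11.8 CPM) and the linear-ubiquitin deubiquitinase gene Otulin (9.65 to 22.7 CPM). Of these, Nfkbib was called (adjusted p = 0.00288), and Nkiras1 (adjusted p = 0.0597) and Otulin (adjusted p = 0.227) were not. In all libraries together Nfkbib, Nkiras1 and Otulin had only 432, 306 and 615 exon reads.

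Of 24 well-known NF-kappaB target genes, 17 were tested and 16 varied, against 71.6% of all genes tested. Their median fold range was 1.74, against 1.57 for all genes tested. Il2ra, a chain of the interleukin 2 receptor, ranged from 165 to 351 CPM, lowest in library 18 and highest in library 23. Irf1 ranged from 167 to 210 CPM, and the survival genes Xiap from 137 to 174 CPM and Cflar from 113 to 167 CPM. Gadd45b, a stress gene, was at 9.76 and 11.2 CPM in libraries 18 and 19 and at 18.1 to 24.9 CPM in the other 4. Ccr7 ranged from 9.51 to 22.4 CPM. The chemokine gene Cxcl10 stood at 409 CPM in library 21, against 9.76 CPM or less in each of the others. Library 21 was thus the high library for both Tab3 and Cxcl10, and it was also the shallowest.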

How the data were processed

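A single deposited table gave values per gene for 6 libraries. Per the labels' protocols, a NucleoSpin RNA XS Micro kit gave the RNA and a QIAseq UPXome kit the libraries. The submitters' processing notes name GRCm38 and mm10. The sources used here do not give the aligner, counter, annotation release or use of strand. Per the file headers, the authors deposited whole read counts on exons, the fraction of each gene's reads on introns, RPKM and exon lengths. The deposited RPKM were computed by the authors on more reads than the exon reads: exon reads made up 40.9% to 49.1% of the reads behind them. A further 11 columns of values per library were not used.

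Library names occur in no label, so 0 of 6 libraries were matched to a sample, and the planned edgeR comparison of Gpx4 cKO with WT was not run. CPM used TMM factors from edgeR 4.0.16 under R 4.3.3, computed on 9510 genes. Intron reads were recovered from the deposited fraction and the exon count. Exon counts of genes with 200 or more reads in all were tested against effective library sizes by chi-square with 5 degrees of freedom. Intron against exon reads were tested likewise for genes that also had 50 intron reads in total and an exon read in every library. Both tests were tried on simulated counts with known changes. Intervals and tests cover counting error only and treat each read as independent. Reads copied by PCR are not independent, so intervals and p-values can be too small. Variation between animals or preparations is not covered.

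Named genes are the 10 members, the 4 most abundant and the 3 widest-ranging genes of each pathway sublist, and the 4 genes nearest in profile to Tnfaip3, Nfkbia and Nfkb1; a few genes that this rule takes are not reported here. Profiles were log2(CPM + 1), centred, for genes averaging at least 20 CPM. The members and lists were chosen with earlier results of these data known. Alternatives were other scalings (DESeq2 1.42.0 size factors, total exon reads, the deposited RPKM), other read minimums and each library left out.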

Additional observations from a re-analysis of the deposited data

How the results depend on the processing

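The count of members varying beyond counting error was 9 of 10 with total exon reads, with DESeq2 size factors and under both other read minimums, but with total exon reads Nfkb1 was called in place of Nfkb2. With each library left out it was 7 to 9, the lowest without library 19, where Rel and Relb lost their calls. Intron share varied for 7 to 8 members with each library left out. Nfkbiz lost that call without library 19 (adjusted p = 0.243). Intron reads scaled to their own totals varied for all 10. A fold range over 1.5 was found for 3 to 5 members with each library left out, 3 without library 22, and for 5 under each scaling. By RPKM, however, Relb (1.545-fold) took the place of Nfkbiz (1.484-fold). The pathway count was 51 of 65 with a minimum of 50 reads. Leaving out libraries from the intron levels was chosen after the data were seen. Of 210 alternative values of single members, 192 moved by less than counting error and 18 by more. Most of the 210 are ranges with a library left out. Such a range cannot change unless that library is its highest or lowest, so the 192 are not a measure of robustness. No paired analysis was possible because the library columns carry no replicate number. The genotype comparison, with DESeq2 or a replicate block, was not run for the same reason. Library 19 was lowest for Tnfaip3 under every scaling. Depth limits library 21 most, where Nfkbid, Bcl3 and Relb had 21, 23 and 25 exon reads.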

Other observations

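The genes whose levels ran most like those of Tnfaip3 over the 6 libraries were, among 6284 others, Ppp1r15a, which encodes the phosphatase cofactor GADD34, Rgs2, a regulator of G protein signalling, Ifrd1, and Junb, an AP-1 gene. Likeness was the root mean square distance between centred log2(CPM + 1) profiles, and it was 0.0821 for Ppp1r15a, 0.127 for Rgs2, 0.155 for Ifrd1 and 0.168 for Junb. Ppp1r15a was at 254, 128, 472, 332, 380 and 314 CPM across libraries 18 to 23. Rgs2 was at 233 CPM in library 18, 106 in library 19 and 274 to 317 CPM in the other 4. All 4 were lowest in library 19, the library in which Tnfaip3 was lowest, which choosing them by likeness to Tnfaip3 made likely.

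The nearest profile to Nfkbia was that of Zbtb11, a zinc finger gene (distance 0.0152), at 80.6 and 79.8 CPM in libraries 18 and 19 and at 95.4 to 110 CPM in the other 4. It was followed by Pim1, a kinase gene induced by cytokines (0.0528), Trim35 (0.0594) and Vps13a (0.061). Nfkb1, which stayed within a 1.12-fold range, had among its nearest profiles those of Twf2 (0.0238), Sar1b (0.0263) and Hk1, which encodes a hexokinase (0.0264). Distances are small for any pair of steady genes, so these name likeness of level over 6 libraries and nothing more.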
